A study of Mus musculus with 7 samples.

Results

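Lck, Fyn, Lyn and Yes1, kinases of the Src family, were followed together with 5 proteins that hold such kinases in check or release them: Csk, Pag1, Ptprc, Ptpn22 and Ptpn6. Members were all non-control probes whose gene name in the array files equals 1 of these 9 symbols. This gave 9 probes, 1 for each gene, of 55681 on the array, whose named probes cover 24048 genes. The RNA came from mouse lymph node CD8 T lymphocytes that were OT-1het and Rag-/- in both groups, so they carried 1 copy of a T cell receptor transgene that recognises the ovalbumin peptide SIINFEKL. All lymphocyte cultures received 100 nM of that peptide for 24 h, after which 50 ng of RNA (integrity number over 8) was labelled with Cy3 for a 1-colour array. There were 4 arrays labelled WT and 3 labelled Lck-/-, which the series calls biological replicates. In the Lck-/- mice a knocked-in, inducible Lck had been switched off by taking doxycycline out of the diet for 7 days. The labels give no doxycycline feeding or withdrawal for the WT mice, so diet and the inducible construct cannot be told apart from the loss of Lck. The promoter behind the inducible Lck, the mice's ages and any pooling of animals are not given in the sources used here.

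Src-family kinases are membrane-bound tyrosine kinases with an activating tyrosine in the kinase domain and an inhibitory tyrosine near the C terminus. Csk phosphorylates the inhibitory site, and the adaptor Pag1 (also called PAG or Cbp) brings Csk to the membrane. The transmembrane phosphatase CD45, encoded by Ptprc, removes that phosphate, whereas Ptpn22 and Ptpn6 (SHP-1) can remove the activating phosphate. Lck, bound to CD4 or CD8, phosphorylates the T cell receptor chains after antigen recognition, and Fyn can do so too, less efficiently. The arrays measured RNA, not the phosphorylation through which these proteins act on each other.

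The following probe sequences show where a member's signal was read, which matters most for Lck, the gene the labels say was removed. They are given 5′ to 3′ as the array design lists them, in the sense of the transcript, with mm9 coordinates from the files. The Lck probe lies at chr4:129225614-129225673 on the minus strand. Its last 30 bases are printed, and the capitals mark the letters AATAAA, the usual polyadenylation signal. The Ptprc probe lies at chr1:139961083-139961142 on the minus strand, and the Ptpn6 probe at chr6:124671114-124671173 on the minus strand, printed to its base 48. In both of these the capitals mark letters that match a stop codon.
Lck: tgcctagcacacaccaggagctcAATAAAa
Ptprc: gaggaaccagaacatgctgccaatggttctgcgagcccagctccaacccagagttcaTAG
Ptpn6: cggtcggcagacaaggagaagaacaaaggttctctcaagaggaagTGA
The letters AATAAA stood in 10.1% of all 55681 probes as printed and in 13.5% on either strand, and among the members in 1 of 9 as printed and in 3 of 9 on either strand. A match describes these letters and is not evidence of a site in use. The exon or untranslated region under each probe was not analysed here. Which stretch of Lck is missing in the knockout is not in the labels, and a probe outside that stretch would check nothing. For the same reason the groups are called arrays labelled WT and arrays labelled Lck-/-.

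Signals are given as log2 of the background-subtracted intensity minus that array's 75th percentile, so 0 is the 75th percentile of an array. A value compares 1 probe between arrays and does not rank 1 gene against another, because probes differ in how brightly they report. Of the 9 probes, 6 (Lck, Fyn, Csk, Ptprc, Ptpn22 and Ptpn6) were well above background on all 7 arrays and entered the test. Probes for Lyn, Yes1 and Pag1 were well above background on none of the 7. A probe was tested when well above background on at least 3 arrays, and limma's adjusted p-values (Benjamini-Hochberg) run over all 29202 such probes.

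None of the 6 tested members changed between the groups at an adjusted p under 0.05. The same was true of all 29202 probes, of which 0 (0%) were called by limma, with a lowest adjusted p of 0.152. Leaving out WT 1 gave 7 calls over all probes and leaving out WT 4 with Lck-/- 1 gave 47. No member was among the 7, and none of the 5 members considered without those arrays was among the 47. At an unadjusted p under 0.05 the call was made for 0 of the 6 members, against 1994 probes (6.83%) in all, which comprised 5.34% higher and 1.49% lower in the arrays labelled Lck-/-. The groups did not overlap for 0 of the 6 members, against 2190 probes (7.5%), with 5.79% higher and 1.71% lower. Differences, taken as Lck-/- minus WT, lay above 0 for 3 members and below 0 for 3, while 62.1% of all tested probes lay above 0. Their median was 0, beside 0.07 over all tested probes. With 6 members, counts of this size say nothing particular about the group.

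**Figure D1:**
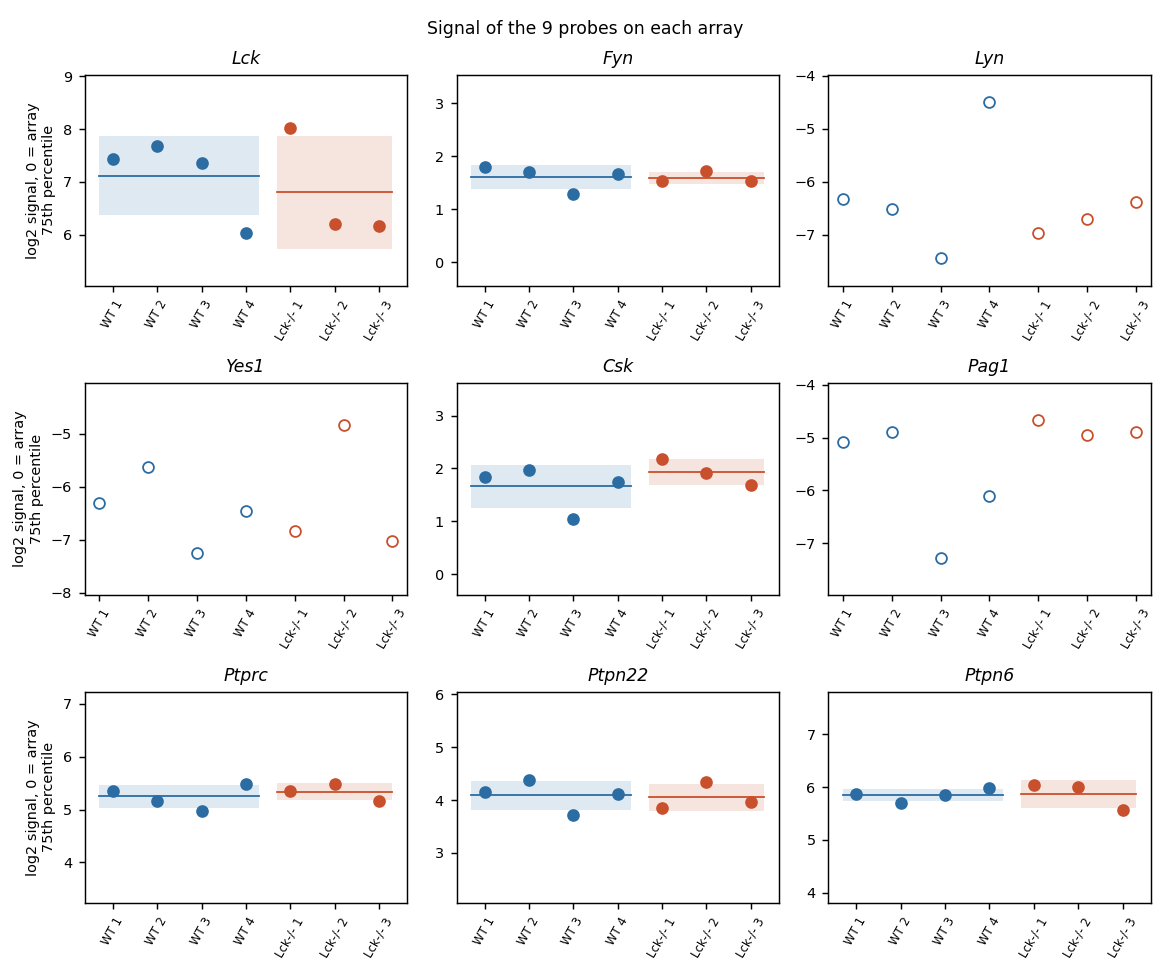
Signal of each of the 9 probes on each array (y axis, log2 signal with 0 at the array's 75th percentile; x axis, array). Blue points are arrays labelled WT and red points arrays labelled Lck-/-; filled points are probes that were tested, with the group mean as a line and 1 SD as a band, and open points are the 3 probes well above background on no array. Lck splits into 4 arrays from 7.36 to 8.02 and 3 from 6.04 to 6.21, and each set holds arrays of both labels.

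Lck, the kinase that starts T cell receptor signalling and the gene named by the labels, was bright on every array, and its order did not follow the labels. Its log2 signal was 7.44, 7.67, 7.36 and 6.04 on WT arrays 1 to 4, and 8.02, 6.21 and 6.17 on Lck-/- arrays 1 to 3. WT 4 was the lowest of all 7 arrays, Lck-/- 1 was the highest, and the groups overlapped. The array labelled Lck-/- 1 stood with WT 1, 2 and 3, and the array labelled WT 4 with Lck-/- 2 and 3, with a gap of 1.14 between 7.36 and 6.21. An exchange of these 2 samples was not tested, and every difference given here rests on the labels as they stand. From lowest to highest the signal spanned 1.98, a 3.95-fold range and wider than that of 89.7% of tested probes. The upper 4 and the lower 3 arrays were divided at the widest gap in these same values, so the division describes them and tests nothing.

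The group means were 7.12 ± 0.74 (SD, n = 4) and 6.80 ± 1.06 (SD, n = 3). They differed by -0.32 (SE 0.55, 95% interval -1.6 to 0.95, limma adjusted p = 0.954). As a ratio, this interval runs from 0.33 to 1.94, so a 3-fold lower Lck signal in the arrays labelled Lck-/- lies just inside what these data allow. Without Lck-/- 1 the difference was -0.93, and without WT 4 it was -0.68, with no call in either case. These 2 arrays are the ones that stood with arrays of the other label in Lck signal. Without Lck-/- 2 it was -0.03, without Lck-/- 3 it was -0.01, and leaving out WT 1, 2 or 3 gave -0.25 to -0.14. Lck signals were 894.1 to 3350 times the local background, so even the lowest array was far from the limit of detection. None of the Lck spots was saturated. WT 4 had the lowest Lck signal under all 5 scalings tried. Lck-/- 1 was the highest with the 75th percentile and with the deposited values, while WT 2 was the highest with quantile normalization, normexp or the array median.

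Marker genes of other cells moved with the Lck signal in part. Summed signal of 10 NK cell markers, as a multiple of the 75th percentile and with each gene at the median of its probes, was 1.76, 3.25, 1 and 6.54 on WT 1 to 4. It was 2.98, 9.71 and 3.98 on Lck-/- 1 to 3. The sum of WT 3 lacks Fcer1g, whose spot there carried an outlier flag and which was among the brighter of these genes elsewhere. The 3 arrays with the lowest Lck had the 3 highest NK sums. Tyrobp and Fcer1g had the highest mean signals of the list (0.17 and 0.61) and so weigh most in the sum. Taken at their brightest probes, Klra4, Klre1, Klri2 and Fcer1g did not have their 3 highest values on these arrays, and the rest of the list did. For example, Fcer1g was 0.73 on WT 2 and 0.58 on Lck-/- 3. Of the NK-defining genes, Ncr1 (the activating receptor NKp46) gave -4.50, -4.34, -4.19 and -2.19 on the WT arrays and -3.26, -2.51 and -3.01 on the others. Klrb1c (NK1.1) gave -4.33, -3.39, -6.62 and -1.86, then -3.37, -1.42 and -3.01. Each of these 2 genes was well above background on only 2 of the 4 WT arrays and on all 3 Lck-/- arrays. The lower WT values of both therefore only bound their level. All 10 NK markers were above background on every array labelled Lck-/-, and 5 to 10 on those labelled WT. Of all non-control spots, 46.6, 48.7, 56.2 and 49.5% were well above background on WT 1 to 4. On Lck-/- 1 to 3 that share was 61.1, 50.6 and 54.3%, so the NK count is not free of such differences between arrays. With the NK markers' mean as a covariate, the Lck difference was 0.30 instead of -0.32, with no call. Whether NK transcripts have a part in the Lck values was not tested. In bulk RNA, fewer cells of a type and less RNA per cell cannot be told apart.

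The T cell markers were present throughout. Their summed signal over 9 genes was 584 to 814 on the arrays labelled WT and 687 to 1120 on those labelled Lck-/-, where the highest sum was that of Lck-/- 1. The sum of WT 3 lacks Cd3e, whose spot there carried an outlier flag. Cd8a, a chain of the CD8 coreceptor to which Lck binds, was 4.24 to 5.34 on the WT arrays and 4.97 to 5.33 on the others. Cd8b1, the other chain, was 5.23 to 5.84 and 5.62 to 6.09. Cd3e, a signalling chain of the receptor complex, was 6.23 to 6.83 on 3 WT arrays and 6.15 to 7.59 on the others. B cell markers summed to 1.29 to 2.03 on WT and 2.05 to 2.54 on Lck-/- arrays, with Cd79a between -3.35 and -2.06. Sums of 8 macrophage markers were 1.07 to 1.67 on WT 1, 2 and 4 and 0.636 on WT 3, where outlier-flagged spots of Csf1r and Cd68 were left out, and 1.4 to 1.67 on the Lck-/- arrays. The sums were, on WT and Lck-/- arrays, for 6 dendritic cell markers 0.213 to 0.475 and 0.346 to 0.374, and for 6 stromal markers 0.551 to 0.741 and 0.702 to 0.976. With each gene at the median of its probes, these sums pass over single bright probes. Of 3 Siglech probes (dendritic list) the brightest was 7.17 to 8.04, and of 3 Itgam probes (macrophage list) 2.91 to 3.87. The part of any of these markers in the members' values was not tested.

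**Figure D2:**
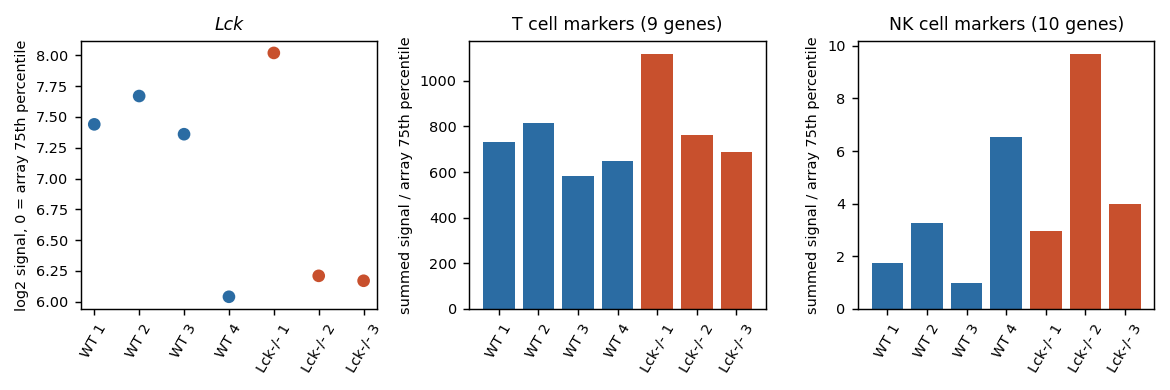
Lck signal (left, log2 with 0 at the array's 75th percentile), summed signal of 9 T cell markers (middle) and of 10 NK cell markers (right), both as multiples of the 75th percentile, on each array. Blue marks arrays labelled WT and red those labelled Lck-/-. WT 4, Lck-/- 2 and Lck-/- 3 have the lowest Lck (6.04, 6.21 and 6.17) and the highest NK sums (6.54, 9.71 and 3.98).

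The genes whose profile over the 7 arrays lay nearest to that of Lck were Ephx1, Clic4 and Plod2. Likeness was the root mean square difference of mean-centred log2 signals over the 7 arrays, among 19315 probes of named genes. Ephx1 (an epoxide hydrolase) lay at 0.18, Clic4 (an intracellular chloride channel protein) at 0.22 and Plod2 (a collagen lysyl hydroxylase) at 0.25. Clic4 was 5.24, 5.23, 5.07 and 4.08 on WT 1 to 4 and 5.33, 3.94 and 4.01 on Lck-/- 1 to 3, so WT 4 again stood with Lck-/- 2 and 3. Ephx1 was 3.77, 3.94, 3.15 and 2.35, then 4.33, 2.52 and 2.47. As these genes were picked for their likeness to Lck, their profiles are a description.

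Fyn, the other Src-family kinase detected here, was among the steadiest of the tested probes, with a range of 0.52 that is wider than that of only 21.5% of them. Its signal was 1.80, 1.71, 1.29 and 1.66 on WT 1 to 4 and 1.53, 1.72 and 1.53 on Lck-/- 1 to 3. WT 3 was the lowest, WT 1 the highest, and all 3 arrays labelled Lck-/- lay inside the WT range. The means were 1.61 ± 0.23 (SD, n = 4) and 1.59 ± 0.11 (SD, n = 3), which differed by -0.02 (SE 0.17, 95% interval -0.41 to 0.37, limma adjusted p = 0.991). As a ratio, the interval runs from 0.752 to 1.29, which leaves out a Fyn difference of the size seen between the upper and lower sets of Lck signals.

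Lyn and Yes1, Src-family kinases best known from B and myeloid cells and from broad expression, respectively, gave signals that only bound their level. Lyn ranged from -7.45 to -4.50 on the arrays labelled WT and from -6.97 to -6.38 on those labelled Lck-/-. Yes1 ranged from -7.25 to -5.62 and from -7.02 to -4.83. Raw spots were 1.6 to 2.4 times the local background for Lyn and 2 to 2.5 times for Yes1, and none passed the scanner's test of being well above it. No fold is given for either, and differences between arrays at this level have no order.

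Csk, the kinase that phosphorylates the inhibitory tyrosine, had the lowest unadjusted p of the members, 0.306. Its signal was 1.83, 1.98, 1.05 and 1.75 on WT 1 to 4 and 2.18, 1.92 and 1.69 on Lck-/- 1 to 3. WT 3 stood alone at the low end, Lck-/- 1 was the highest, and the groups overlapped. The means were 1.66 ± 0.41 (SD, n = 4) and 1.93 ± 0.25 (SD, n = 3), which differed by 0.27 (SE 0.25, 95% interval -0.31 to 0.85, limma adjusted p = 0.881). Without WT 3 it was 0.07. The genes nearest to Csk in profile were Susd3 at 0.06, Flii (a gelsolin-family actin regulator) at 0.07 and Mtdh at 0.10. All of them were lowest on WT 3, for example Flii at 2.92 there and between 3.72 and 4.17 elsewhere. Being picked for their likeness to Csk, itself lowest on WT 3, they describe that profile and test nothing.

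WT 3 was the array with the lowest signal for 4 of the 6 tested members, namely Fyn, Csk, Ptprc and Ptpn22. This held with the 75th percentile, quantile, normexp and deposited values, and with the array median as reference it was so for 1 of 6, Csk. With that reference Lck-/- 1 was instead the lowest array for Fyn, Ptprc, Ptpn22 and Ptpn6, so which array is lowest depends on the scaling. WT 3 also had the highest 75th percentile (615.4, with the other 6 arrays at 353.6 to 502.3) and the most outlier-flagged spots (1549, with 166 to 557 elsewhere). The part of either in the members' values was not tested.

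Pag1, the adaptor that anchors Csk, was well above background on no array. Its signal was -5.08, -4.90, -7.28 and -6.11 on the arrays labelled WT and -4.66, -4.96 and -4.89 on those labelled Lck-/-, at 2.2 to 2.8 times the local background. The 2 lowest values were those of WT 3 and WT 4. At this brightness such an order carries no weight, and no difference between the groups was computed.

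Ptprc, which encodes CD45 and counters Csk, was bright and nearly level. Its signal was 5.36, 5.17, 4.97 and 5.49 on WT 1 to 4 and 5.36, 5.49 and 5.17 on Lck-/- 1 to 3. Lck-/- 2 equalled WT 4 at the top, Lck-/- 3 equalled WT 2, and the groups overlapped fully. The means of 5.25 ± 0.22 (SD, n = 4) and 5.34 ± 0.16 (SD, n = 3) differed by 0.09 (SE 0.17, 95% interval -0.31 to 0.49, limma adjusted p = 0.957). With the array median as reference the difference was -0.11.

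Ptpn22, the phosphatase that acts with Csk on active Lck, was 4.15, 4.38, 3.72 and 4.11 on WT 1 to 4 and 3.85, 4.34 and 3.96 on Lck-/- 1 to 3. The 3 arrays labelled Lck-/- lay inside the WT range. The means of 4.09 ± 0.27 (SD, n = 4) and 4.05 ± 0.26 (SD, n = 3) differed by -0.04 (SE 0.20, 95% interval -0.51 to 0.43, limma adjusted p = 0.987).

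Ptpn6, the SH2-domain phosphatase SHP-1, had the narrowest range of the tested members at 0.47. Its signal was 5.87, 5.70, 5.85 and 5.98 on WT 1 to 4 and 6.04, 6.01 and 5.57 on Lck-/- 1 to 3. Arrays labelled Lck-/- held both the highest and the lowest value. The means of 5.85 ± 0.12 (SD, n = 4) and 5.87 ± 0.26 (SD, n = 3) differed by 0.02 (SE 0.17, 95% interval -0.37 to 0.41, limma adjusted p = 0.991). Its sign turned under several alternatives, to -0.18 with the array median as reference.

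**Figure D3:**
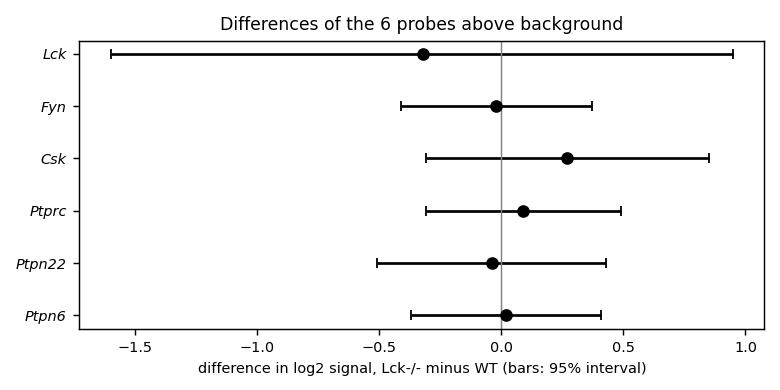
Difference in log2 signal, Lck-/- minus WT (x axis), for the 6 tested members, with 95% intervals from limma. Every interval crosses 0, and that of Lck (-1.6 to 0.95) is the widest of the 6.

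A p-value that misses the threshold does not show that the groups act alike, and the intervals give what these arrays can tell. As ratios they ran from 0.809 to 1.81 for Csk, from 0.808 to 1.41 for Ptprc, from 0.7 to 1.35 for Ptpn22 and from 0.775 to 1.33 for Ptpn6. Among these and Fyn, a ratio of 2 in either direction lies outside each interval. For Lck a ratio of 2 lies outside on the high side only.

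The rest of the Src family was mostly dim. Of 7 further kinases, Frk and Ptk6 were above background on no array, Blk and Srms on 1 and Src on 2. Another 2 were tested, and neither was called. Fgr, a kinase of myeloid cells, was -4.82, -4.19, -4.14 and -2.70 on WT 1 to 4 and -4.43, -2.66 and -3.22 on Lck-/- 1 to 3, a difference of 0.52 (SE 0.56, limma adjusted p = 0.903). Arrays of both labels overlapped. The Fgr probe was well above background on only 2 of the 4 WT arrays and on all 3 Lck-/- arrays. Its lower WT values therefore only bound its level, and the difference rests partly on them. WT 4 and Lck-/- 2, the arrays with the highest NK sums, were also the highest 2 for Fgr.

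Of 25 other genes that regulate Src-family kinases, all were tested and 0 were called. At an unadjusted p under 0.05 there was 1, Pstpip1, an adaptor that brings the phosphatase PTP-PEST to its targets. It was 2.86, 2.56, 2.67 and 2.69 on WT 1 to 4 and 3.02, 3.20 and 3.14 on Lck-/- 1 to 3, without overlap, a difference of 0.43 (SE 0.14, limma adjusted p = 0.663). Ptpn11, which encodes the phosphatase SHP-2, differed by -0.35 (SE 0.17, limma adjusted p = 0.741), and all 3 arrays labelled Lck-/- (4.60, 4.79 and 4.62) lay below or within the low end of the WT range (4.78 to 5.30). Cdc37, the co-chaperone of many kinases including Lck, differed by 0.20 (SE 0.17, limma adjusted p = 0.869). In this list 18 differences lay above 0 and 7 below, with a median of 0.17 beside 0.07 for all tested probes. With the array median as reference 7 lay above 0, and the list's median was -0.04 beside -0.13 for all. The groups did not overlap for 3 of the 25, beside 7.5% of all tested probes.

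Of 25 substrates and partners, all were tested and 0 were called. At an unadjusted p under 0.05, 3 were higher and 1 lower, against 5.34% and 1.49% of all tested probes. Pdcd1, which encodes the inhibitory receptor PD-1, was 3.72, 4.29, 3.05 and 3.44 on WT 1 to 4 and 2.53, 3.03 and 2.38 on Lck-/- 1 to 3. All 3 arrays labelled Lck-/- lay below the lowest WT array, by as little as the step from 3.03 to 3.05, and the difference was -0.98 (SE 0.30, limma adjusted p = 0.652). Syk, a kinase that binds phosphorylated receptor chains, was -3.27, -2, -3.42 and -2.14 on WT 1 to 4 and -3.02, -1.12 and -1.91 on Lck-/- 1 to 3. The groups overlapped, with a difference of 0.69 (SE 0.52, limma adjusted p = 0.852). Cd6, a scavenger-family receptor of T cells, differed by -0.31 (SE 0.24, limma adjusted p = 0.855), and Cd3d, a chain of the receptor complex, by 0.06 (SE 0.16, limma adjusted p = 0.971).

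The 3 with an unadjusted p under 0.05 and a positive difference are named after their values were seen. Tec, a non-receptor tyrosine kinase, differed by 0.57 (SE 0.16, limma adjusted p = 0.652). Lat, the membrane adaptor phosphorylated by Zap70, differed by 0.59 (SE 0.22, limma adjusted p = 0.678). Fyb, the adaptor ADAP, which binds Fyn, differed by 0.47 (SE 0.20, limma adjusted p = 0.725). The list's median was 0.18 with 17 differences above 0 and 8 below, and -0.02 with the array median as reference. Of all tested probes, 62.1% lay above 0. No overlap of the groups was seen for 2 of 25 genes, near the 7.5% of all tested probes.

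**Figure D4:**
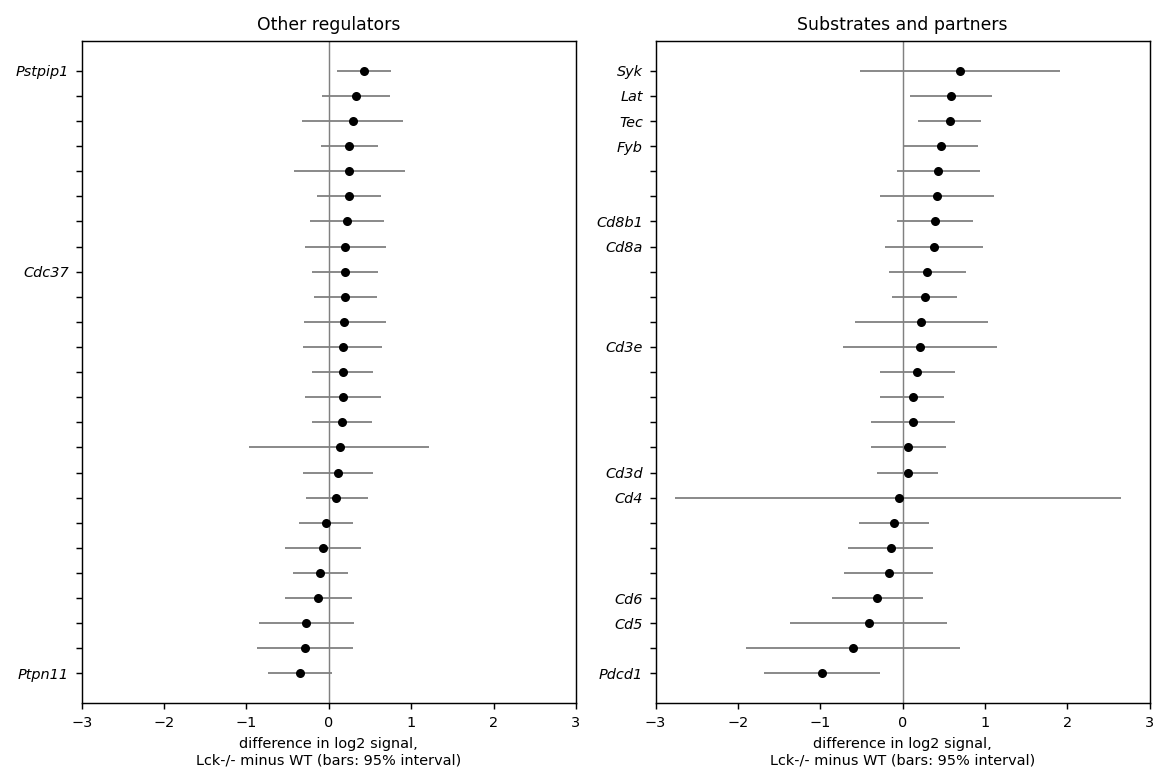
Difference in log2 signal, Lck-/- minus WT (x axis), of 25 other regulators of Src-family kinases (left) and 25 substrates and partners (right), with 95% intervals from limma, genes ordered by the difference, and a name beside each gene that the text describes. Pstpip1 (0.43) heads the regulators and Ptpn11 (-0.35) closes them; among the partners Pdcd1 lies lowest at -0.98.

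**Figure D5:**
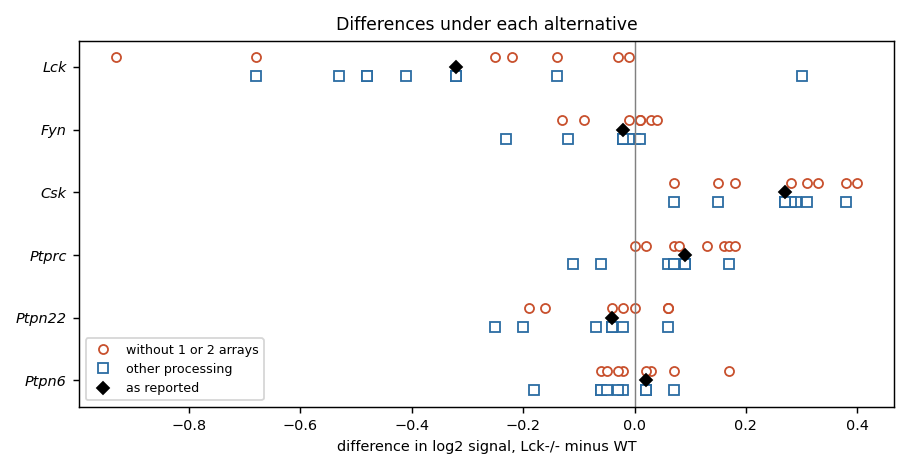
Difference in log2 signal, Lck-/- minus WT (x axis), of each tested member as reported (black diamond), without 1 or 2 arrays (red circles) and under other processing (blue squares). Lck spans -0.93 to 0.30, while Csk stays above 0 from 0.07 to 0.40 and Ptpn6 lies on both sides of 0 from -0.18 to 0.17.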

How the data were processed

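Per the file headers, Agilent Feature Extraction 10.7.3.1 made the deposited spot intensity values, with background subtracted and no scaling between arrays; 75th percentiles ran from 353.6 to 615.4. The authors' deposited table of log2 values, normalized in a way that the sources used here do not give, was an alternative. The submitters' processing notes name limma, with no version or role. All 7 arrays were on 1 slide.

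From these, log2 of the processed intensity was scaled to each array's 75th percentile over non-control spots, without outlier-flagged spots. Probes well above background on at least 3 arrays (46.6 to 61.1% of spots per array were) were fitted with limma 3.58.1 in R 4.3.3 (lmFit, eBayes, two-sided), tested on simulated data. The number of arrays limits the precision. Groups came from sample titles. Of the probes, 27235 were named by accession, 3568 by symbol and 564 by synonym through a RefSeq table of GRCm38.p6 (names only), and 1817 kept the file's name. A list gene was taken at its brightest probe, and in the marker sums at the median of its probes.

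The members and lists were chosen with earlier results of these data known. The naming rule took all members, per list the genes past the threshold or else the 2 largest differences on all 7 arrays and the 2 highest means, and 3 nearest profiles for members ranging over more than 1. Alternatives were quantile normalization, normexp (offset 50), the array median, the deposited values, other filters and probe summaries, outlier spots kept, replicate blocks, an NK covariate and arrays left out. Arrays sharing a title number did not deviate together (correlations 0.04, 0 and 0.02). Some listed genes are not reported here by name.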

Additional observations from a re-analysis of the deposited data

How the results depend on the processing

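Of 119 alternative differences over the 6 tested members, 96 kept their direction or rounded to 0, 23 turned it and 0 passed the threshold. Those that rounded to 0 were Fyn with quantile normalization, Ptprc without WT 3 and Ptpn22 without Lck-/- 3. The count of members called stayed 0, adjusted or not, in every setting. Ptpn6 was -0.06 with quantile normalization, -0.18 with the array median, -0.06 with normexp, -0.05 with the NK covariate and -0.02 from the deposited table. Ptprc was -0.11 with the array median and -0.06 with the NK covariate, under which Lck was 0.30. Without WT 4 and Lck-/- 1, Fyn was 0.03, Ptpn22 0.06 and Ptpn6 -0.02, and 47 of all probes were called; Lck was not computed there, since its signal chose the 2 arrays. Leaving out each array in turn gave -0.93 to -0.01 for Lck, -0.13 to 0.04 for Fyn, 0.07 to 0.40 for Csk, 0 to 0.18 for Ptprc, -0.19 to 0.06 for Ptpn22, -0.06 to 0.17 for Ptpn6 and 0 to 7 calls over all probes (7 without WT 1). The cause of each turn was not tested. The 3 gene lists had 0 calls in every setting, which were added after the data were seen.

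With the title number as replicate block, Lck was -0.68 and Csk 0.31, with 0 calls over all probes, and 0 of 6 arrays correlated best with their own number in the other group. With the number in the file names as replicate block, Fyn was 0.01, Ptpn22 0.06 and Ptpn6 -0.03.

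Of probes at an unadjusted p under 0.05, 78.1% were higher in Lck-/-, against 61.9% with quantile normalization, 30.9% with the array median, 60.9% with normexp and 53.3% with the deposited values. Signals of Lyn, Yes1 and Pag1 were too near background for any difference.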

Other observations

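These genes were chosen after their values were seen. Cd5, an inhibitory receptor phosphorylated by Lck, was 7.31, 7.58, 7.10 and 6.65 on WT 1 to 4 and 7.75, 6.48 and 6.01 on Lck-/- 1 to 3. The 3 lowest were again WT 4, Lck-/- 2 and Lck-/- 3, but without the gap seen for Lck. The step from 7.10 to 6.65 above these arrays was about as wide as that from 6.48 to 6.01 among them. The Cd5 difference was -0.41 (SE 0.41, limma adjusted p = 0.892). Cd4, the other coreceptor to which Lck binds, was 1.69, 2.05, 5.47 and 1.90 on the arrays labelled WT and 1.78 and 3.67 on Lck-/- 2 and 3, with the spot of Lck-/- 1 left out as an outlier. WT 3 and Lck-/- 3 were thus the bright ones. A second Cd4 probe was between -3.98 and -3.26 on all arrays, so the 2 probes disagree. Blk, a Src-family kinase of B cells, was -0.36 on WT 2 and -7.04 to -3.97 on the other 6 arrays.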
